A study of Mus musculus with 10 samples.

Results

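The 50 genes described here encode the Wnt ligands, their receptors, the secreted antagonists and the core of the intracellular pathway. They were taken from a named list of pathway genes drawn up with earlier results of these libraries known, and all 50 were found among the 30935 genes of the count table. Total RNA of mouse cerebral cortex was sequenced at postnatal day 8. 5 libraries came from knockout mice (genotype Rbfox1 ΔHAR.505/ΔHAR.505, replicates 1, 3, 5, 6 and 8) and 5 from wild-type mice (Rbfox1 +/+, replicates 2, 4, 5, 6 and 7), with 1 library per independent biological sample. HAR.505 is a human accelerated region of the Rbfox1 locus, and the study concerns enhancers that this locus gained and lost in human evolution. The deletion removes a noncoding element, so no gene count checks the genotype labels. Strain and sex were not given in the labels.

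Wnt proteins are secreted lipid-modified ligands that bind a Frizzled receptor and, for the canonical branch, the co-receptor Lrp5 or Lrp6. Binding recruits Dishevelled and stops the destruction complex of Axin, Apc and Gsk3b from marking beta-catenin for degradation. Beta-catenin then enters the nucleus and acts with Lef1 and the Tcf factors on target genes. Secreted antagonists act outside the cell, either by holding the ligand (the Sfrp proteins, Frzb and Wif1) or by binding the co-receptor (Dkk1 and Dkk2). In the maturing cortex the pathway is known for roles in synapse formation, dendrite growth and the barrier properties of brain vessels.

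Library totals ran from 16479594 to 18166712 counts in knockout and from 17251793 to 22391943 in wild-type mice. The cortical marker Slc17a7, the vesicular glutamate transporter gene, stood at 805 to 1075 CPM (counts scaled per 1e6 of the adjusted library total) in knockout and 867 to 971 CPM in wild-type libraries. The 8 thalamic markers summed to 223 to 249.5 CPM in knockout and 242.5 to 265 CPM in wild-type libraries, with 1 of the 7 tested fold changes above 0 and none past the adjusted threshold; Gbx2, the eighth, had 0 counts in every knockout library and at most 0.102 CPM in wild type. Markers of neighbouring tissues differed between the genotypes. All 12 choroid plexus markers had fold changes below 0, with a summed level of 115 to 353 CPM in knockout against 348 to 437 CPM in wild-type libraries, and Ttr, the transthyretin gene, ranged from 0 to 200 CPM against 213 to 278 CPM. Clic6 (edgeR adjusted p = 0.00989) and Tmem72 (edgeR adjusted p = 0.0193) of this list fell. Of the 12 striatal projection neuron markers 11 had fold changes below 0, with a summed level of 226 to 299 CPM in knockout against 282 to 436 CPM in wild-type libraries. Six3 (0.279 to 1.51 CPM in knockout, 2.04 to 6.31 CPM in wild type, edgeR adjusted p = 0.000625) and Penk (10.5 to 15.99 CPM in knockout, 17.0 to 33.9 CPM in wild type, edgeR adjusted p = 0.00989) fell. In bulk tissue, fewer cells of a type and less RNA per cell cannot be told apart.

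Among the 50 members 1 gene changed between the genotypes. Dkk3, a secreted glycoprotein of the Dickkopf family, rose in the knockout by 1.35-fold, and none of the ligands, Frizzled receptors, co-receptors, Sfrp antagonists, intracellular components or feedback genes passed the test. 49 members passed the filter on low counts and were tested with edgeR's quasi-likelihood test fitted over the whole table (Benjamini-Hochberg adjusted p under 0.05 over 15488 genes). 1 of the 49 was higher and 0 were lower, where 0.187% of all tested genes were higher and 0.194% lower. At an unadjusted edgeR p under 0.05 there were 4 members, where 8.71% of all tested genes passed. 2 of the 4 were higher, beside 4.19% of all tested genes, and 2 were lower, beside 4.52%. The count was 9 without knockout replicate 5, and 2 without knockout replicate 6 or wild-type replicate 7. The median log2 fold change of the 49 was 0.012, beside -0.0021 over all tested genes, and 28 of the 49 lay above 0, where 49.1% of all tested genes did. Libraries of the genotypes did not overlap for 1 member, Dkk3, and for 1.83% of all tested genes.

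**Figure D1:**
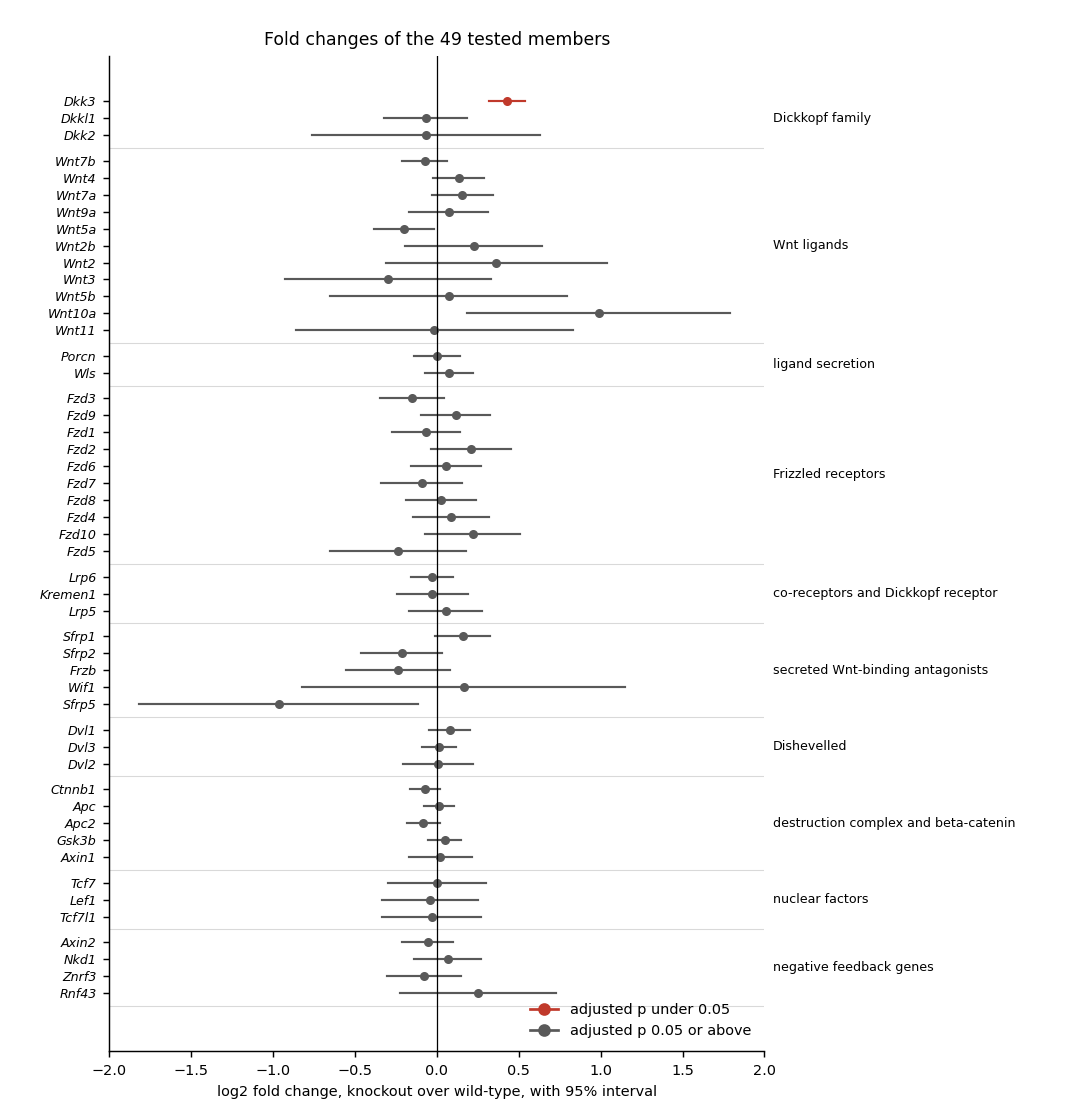
Log2 fold changes of knockout over wild-type cortex (points) with 95% intervals (lines) for the 49 tested members, grouped by role and ordered within a role by level. Dkk3, in red, is the member past the adjusted threshold, and the widest intervals belong to Sfrp5, Wif1, Wnt10a and Wnt11, which stood at under 2 CPM.

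The Dickkopf family consists of secreted proteins of which Dkk1 and Dkk2 bind Lrp5, Lrp6 and the Kremen receptors. Dkk3 is a divergent member for which such binding is not established, and Dkkl1 is a related gene known mainly from the testis. Dkk3 stood at 138, 150.0, 137, 154 and 135 CPM in knockout replicates 1, 3, 5, 6 and 8, against 108, 108, 99.9, 100.01 and 114 CPM in wild-type replicates 2, 4, 5, 6 and 7. Every knockout library lay above every wild-type library, and the gap between the groups was wider than the range within either. The mean was 143 ± 8.76 CPM in knockout and 106 ± 5.92 CPM in wild type (SD, n = 5 each). On the log2 scale the knockout was higher by 0.43 (SE 0.053, edgeR adjusted p = 9.97e-05), and the 95% interval of the fold ran from 1.25 to 1.45. Dkk3 had the smallest p of the 15488 genes kept by the filter, as earlier results on these libraries had shown, and the fifth smallest of the 23319 genes tested without a filter. Because the groups do not overlap, the two-sided exact permutation p, with 252 possible assignments, takes its smallest possible value of 0.00794, as it would for any of the 283 genes without overlap.

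Dkk3 was also the most abundant Dickkopf gene. Levels of different genes are compared as CPM per kilobase of exon length. On this scale Dkk3 stood at 42.5 ± 2.61 in knockout and 31.5 ± 1.76 in wild type (SD, n = 5 each), the fifth of the 50 members after Ctnnb1, Apc, Apc2 and Gsk3b. Its relative Dkkl1 came next in the family at 9.79 ± 0.945 in knockout and 10.28 ± 1.502 CPM per kilobase in wild type. The ranges of Dkk3 and Dkkl1 over the 10 libraries did not meet. Dkk3 made up 77.4% to 81.8% of the family's summed level per kilobase in knockout libraries and 72.4% to 79.8% in wild-type libraries, ranges that overlapped.

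The other Dickkopf genes did not pass the test. Dkkl1 stood at 10.7, 11.1, 10.04, 11.5 and 12.9 CPM in the knockout libraries and 13.3, 13.6, 11.9, 10.9 and 9.41 CPM in the wild-type libraries, in replicate order. The groups overlapped throughout, with a log2 fold change of -0.068 (SE 0.12, edgeR adjusted p = 0.945). Dkk2, an Lrp6 ligand, stood at 2.45, 1.49, 0.918, 1.84 and 1.23 CPM in knockout and 0.997, 1.29, 2.61, 2.16 and 1.27 CPM in wild type, with a log2 fold change of -0.067 (SE 0.34). Its libraries spread by more than a factor of 2 within each genotype, so its 95% interval, from -0.76 to 0.63, is wide. Dkk1, the best known inhibitor of Lrp6, was at the edge of detection. Its counts were 0, 2, 2, 2 and 5 in the knockout libraries and 8, 3, 0, 0 and 2 in the wild-type libraries, too few to test, where 3 counts of a library's total correspond to 0.134 to 0.182 CPM. This floor covers counting error only.

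**Figure D2:**
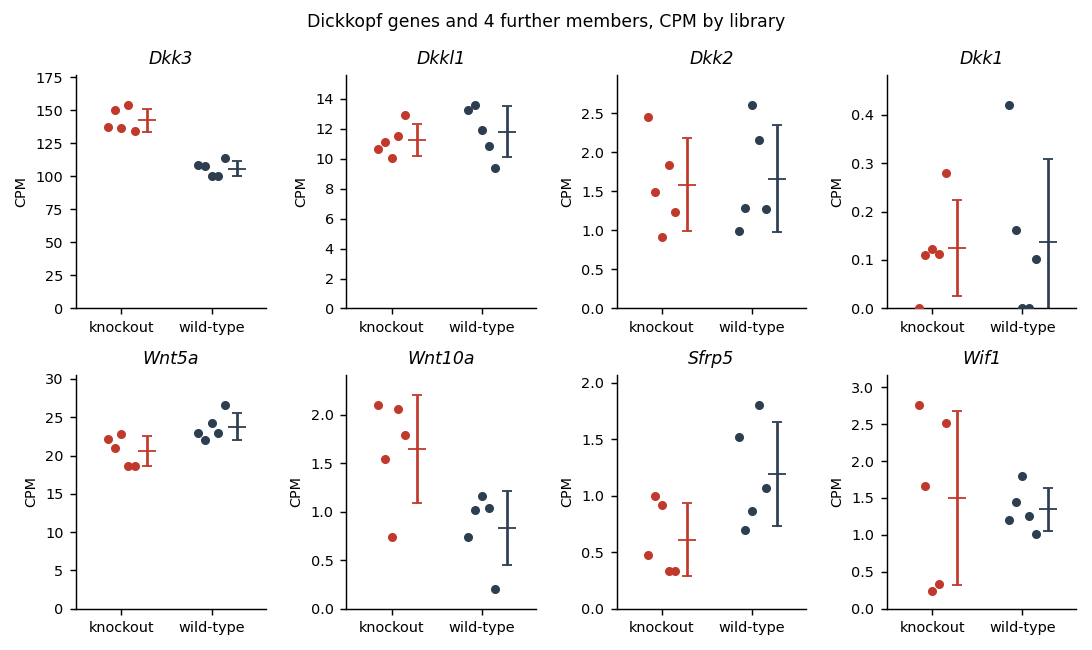
CPM in each library (points, in replicate order within a genotype) with mean and SD (bars, n = 5) for the 4 Dickkopf genes, for Wnt5a, Wnt10a and Sfrp5, the other members at an unadjusted edgeR p under 0.05, and for Wif1. Knockout is on the left; Dkk3 alone shows no overlap, and Wif1 splits within the knockout, with replicates 5 and 6 at 0.245 and 0.334 CPM. Bars that would pass below 0 are cut there.

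Dkk3 and the markers of neighbouring tissues both differed between the genotypes. Knockout replicates 3, 5 and 6, in which the choroid plexus markers summed to 115 to 118 CPM, had 150.0, 137 and 154 CPM of Dkk3. Knockout replicate 1, with 353 CPM of choroid plexus markers, had 138 CPM of Dkk3. That sum includes Ttr at 200 CPM, against 0 to 80.6 CPM in the other knockout libraries. It also includes Enpp2 at 121 CPM, the highest value of the 10 libraries, against 92.5 to 96.0 CPM in the other knockout libraries. Ttr, Clic6, Tmem72 and Kcnj13 in replicate 1 lay below every wild-type library. Its Folr1, Kl, Otx2, Aqp1, Slc4a5, Sostdc1 and Prlr lay within the wild-type range. Knockout replicate 8 had 197 CPM of choroid plexus markers, below the lowest wild-type library at 348 CPM, and 135 CPM of Dkk3. Replicates 1 and 8 were the knockout libraries with the highest choroid plexus sums. With knockout replicates 1 and 8 only, the Dkk3 log2 fold change was 0.36 (SE 0.067, edgeR adjusted p = 0.0180). With the mean log2 CPM of the choroid plexus and ependymal markers as a covariate it was 0.34 (SE 0.087, edgeR adjusted p = 0.499), and with that of the striatal markers 0.28 (SE 0.091, edgeR adjusted p = 0.937). In the choroid fit 0 and in the striatal fit 1 of all 15488 genes passed, and 59 did with genotype alone. Neither covariate overlapped between the genotypes, so its part and that of genotype cannot be told apart. The 10 cortical excitatory neuron markers summed to 1837 to 1950 CPM in knockout and 1760 to 1873 CPM in wild-type libraries, with 6 of 10 fold changes above 0. Slc17a7 alone gave 805 to 1075 CPM of this sum in knockout and 867 to 971 CPM in wild type. At an unadjusted edgeR p under 0.05, 2 of the 10 were higher and 3 lower, beside 4.19% and 4.52% of all tested genes. 0 passed the adjusted threshold. The 8 interneuron markers summed to 539 to 657 CPM in knockout and 650.3 to 735 CPM in wild-type libraries, with 7 of 8 fold changes below 0. Of these Slc32a1, the vesicular GABA transporter gene, fell without overlap, at 84.9 to 99.3 CPM in knockout and 104 to 131 CPM in wild type (edgeR adjusted p = 0.00989). The part of these markers in the Dkk3 difference was not tested.

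**Figure D3:**
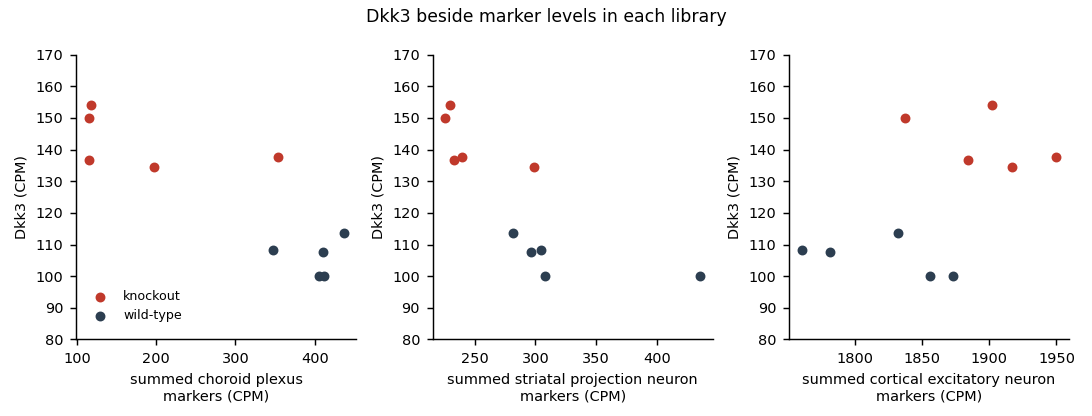
Dkk3 CPM (vertical axis, which starts at 80) against the summed CPM of choroid plexus, striatal projection neuron and cortical excitatory neuron markers in each library, knockout in red and wild-type in dark blue. Every knockout library lies above every wild-type library in Dkk3, and most knockout libraries lie to the left in choroid plexus and striatal markers. Knockout replicate 1 sits near wild type at 353 CPM of choroid plexus markers, of which Ttr gives 200 CPM and Enpp2 121 CPM. Its Ttr, Clic6, Tmem72 and Kcnj13 lie below all wild-type libraries, and its other choroid plexus markers apart from Enpp2 lie within the wild-type range.

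The Dkk3 difference did not depend on a single library. Leaving out each library in turn gave log2 fold changes of 0.40 to 0.46, with edgeR adjusted p between 5.48e-06 and 0.00112. DESeq2 gave 0.43 (SE 0.057, adjusted p = 4.05e-10) and limma-voom 0.43 (SE 0.054, adjusted p = 0.000225). With sex, called from Xist and Y-linked counts, as a covariate the value was 0.40 (SE 0.050, edgeR adjusted p = 8.30e-05); 2 of 5 knockout and 1 of 5 wild-type libraries were male.

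**Figure D4:**
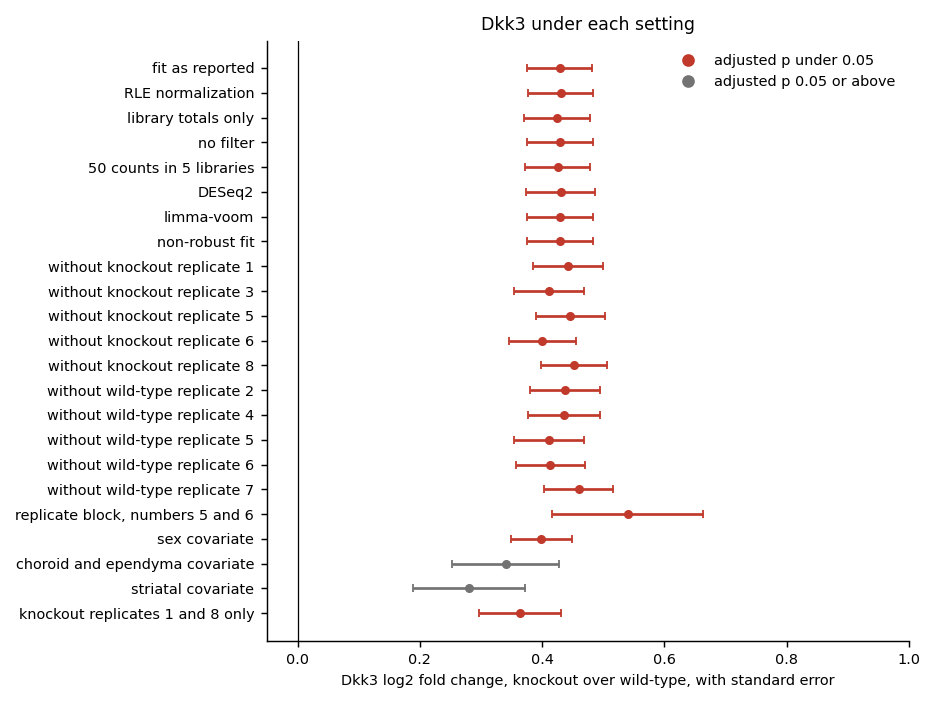
Dkk3 log2 fold change of knockout over wild type with its standard error under each setting, in red where the adjusted p was under 0.05. All values lie between 0.28 and 0.54, and the call was lost in the choroid and striatal covariate fits, in grey.

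The ligands of the postnatal cortex were led by Wnt7b, Wnt4 and Wnt7a. Wnt7a and Wnt7b are made by neural cells and are known to signal to brain endothelium, and Wnt4 is a ligand that acts through both branches of the pathway. Per kilobase, Wnt7b reached 18.2 ± 1.97 in knockout and 19.1 ± 1.29 CPM in wild type, Wnt4 9.36 ± 0.848 and 8.52 ± 0.663, and Wnt7a 7.47 ± 0.747 and 6.70 ± 0.502 (SD, n = 5 each). The range of Wnt7b over the 10 libraries stood apart from that of Wnt4, while those of Wnt4 and Wnt7a overlapped. Wnt9a and Wnt5a followed at 3.97 and 2.94 CPM per kilobase in knockout and 3.78 and 3.38 in wild type, and these 5 genes held 90.8% of the summed level per kilobase of the 11 ligand members in knockout and 92.0% in wild type. The other 6 ligand members, Wnt2b, Wnt2, Wnt3, Wnt5b, Wnt10a and Wnt11, averaged between 0.285 and 1.02 CPM per kilobase with overlapping neighbours. Of the 8 Wnt genes that are not members, Wnt6 was the most abundant, at 1.42 CPM per kilobase in knockout and 1.405 in wild type.

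0 of the 11 ligands passed the test over all genes, and Wnt5a and Wnt10a had an unadjusted edgeR p under 0.05. Wnt5a, the main ligand of the noncanonical branch, stood at 22.2, 21.0, 22.8, 18.7 and 18.6 CPM in the knockout libraries and 22.9, 22.01, 24.2, 23.0 and 26.6 CPM in the wild-type libraries. Only knockout replicates 1 and 5 reached into the wild-type range. The log2 fold change was -0.20 (SE 0.090, edgeR adjusted p = 0.502). Wnt10a stood at 2.10, 1.55, 0.734, 2.06 and 1.79 CPM in knockout and 0.734, 1.02, 1.16, 1.03 and 0.204 CPM in wild type. 4 of the 5 knockout libraries lay above all wild-type libraries, on 4 to 37 counts per library, with a log2 fold change of 0.99 (SE 0.39, edgeR adjusted p = 0.419).

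The leading ligands gave narrower intervals. Wnt7b stood at 82.5, 91.1, 88.6, 88.1 and 68.5 CPM in knockout and 83.0, 80.9, 93.4, 89.7 and 93.9 CPM in wild type, so that all but the last knockout library fell among the wild-type values. Its log2 fold change was -0.074, with a 95% interval from -0.21 to 0.062. Wnt4 stood at 38.9, 41.0, 42.05, 41.1 and 33.2 CPM in knockout and 31.0, 36.8, 36.9, 35.9 and 38.2 CPM in wild type. Here 4 knockout libraries lay above every wild-type library and replicate 8 lay low, with a log2 fold change of 0.13 (SE 0.076, edgeR adjusted p = 0.665). Knockout replicate 8 was also the lowest knockout library for Wnt7a, at 19.9 CPM against 23.5 to 26.0 CPM in the other knockout libraries.

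Porcn, the enzyme that adds the lipid to Wnt proteins, and Wls, which carries them to the cell surface, are needed for ligand release. Porcn stood at 37.7, 34.3, 32.4, 37.5 and 37.1 CPM in knockout and 33.6, 35.8, 37.3, 34.9 and 37.1 CPM in wild type. Wls stood at 32.4, 33.6, 35.7, 34.2 and 30.5 CPM in knockout and 30.3, 31.7, 31.4, 33.6 and 30.5 CPM in wild type. The genotypes overlapped for both genes. Their log2 fold changes were 0.0014 (95% interval -0.14 to 0.14) for Porcn and 0.077 (-0.070 to 0.22) for Wls.

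**Figure D5:**
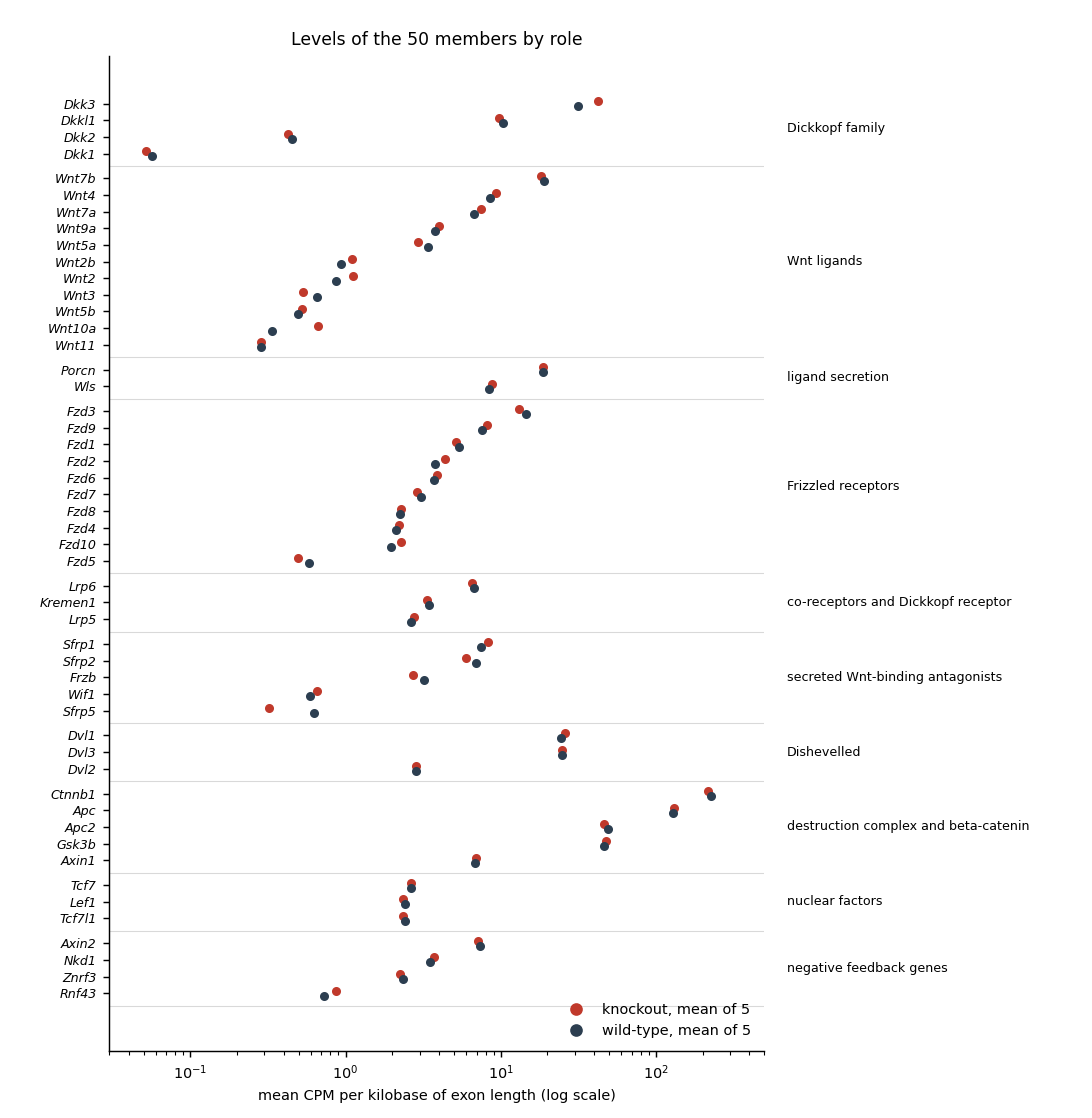
Mean CPM per kilobase of exon length, on a log axis, for the 50 members in knockout (red) and wild-type (dark blue) cortex, 5 libraries each, grouped by role. Levels span from Dkk1 at 0.051 in knockout to Ctnnb1 at 216 in knockout, and Dkk3 leads the secreted members.

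All 10 Frizzled genes, which encode the seven-pass receptors of Wnt proteins, were detected. Fzd3, known for axon guidance and growth of fibre tracts, was the most abundant at 13.2 ± 1.81 in knockout and 14.6 ± 1.22 CPM per kilobase in wild type, and Fzd9 followed at 8.20 ± 0.944 and 7.57 ± 0.756 (SD, n = 5 each). Their ranges over the 10 libraries stood apart from each other and Fzd9 from Fzd1, while the neighbours from Fzd1 to Fzd7 and from Fzd8 to Fzd10 overlapped. Fzd5 was lowest at 0.498 in knockout and 0.585 CPM per kilobase in wild type. 0 of the 10 passed the test and 0 had an unadjusted edgeR p under 0.05, with log2 fold changes from -0.24 (Fzd5) to 0.22 (Fzd10).

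Fzd3 stood at 165, 156, 194, 138 and 188 CPM in the knockout libraries and 194, 159, 191, 198 and 190.4 CPM in the wild-type libraries. Knockout replicates 3 and 6 lay below every wild-type library, and the other knockout libraries lay within the wild-type range. That range reached down to 159 CPM through wild-type replicate 4 alone. The other wild-type libraries stood at 190.4 to 198 CPM, and only knockout replicate 5 reached that level. The log2 fold change was -0.15 (SE 0.089, edgeR adjusted p = 0.705). Fzd9 stood at 15.99, 20.4, 21.4, 17.6 and 18.6 CPM in knockout and 17.8, 16.9, 16.1, 15.9 and 20.1 CPM in wild type, with a log2 fold change of 0.11 (SE 0.10, edgeR adjusted p = 0.848). Fzd4, the receptor known from vessels of brain and retina, had 14.96 ± 1.89 CPM in knockout and 14.1 ± 1.71 CPM in wild type, and the 8 endothelial markers summed to 338 to 386 CPM in knockout and 335 to 359 CPM in wild-type libraries.

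The co-receptor Lrp6 exceeded its paralogue Lrp5. Lrp6 stood at 6.56 ± 0.510 and Lrp5 at 2.75 ± 0.345 CPM per kilobase in knockout, against 6.68 ± 0.414 and 2.65 ± 0.315 in wild type (SD, n = 5 each). In CPM, Lrp6 had 58.9, 60.1, 69.8, 57.9 and 60.6 in knockout and 61.1, 63.4, 58.3, 68.7 and 61.4 in wild type, with a log2 fold change of -0.027 (95% interval -0.16 to 0.10). Kremen1, the receptor that takes part in Dkk1 binding to Lrp6, had 15.3, 14.96, 18.6, 15.4 and 17.5 CPM in knockout and 17.8, 15.8, 14.0, 19.8 and 15.8 CPM in wild type. Its log2 fold change was also -0.027 (95% interval -0.25 to 0.19). The values of the genotypes overlapped for all 3 genes.

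The Wnt-binding antagonists were led by Sfrp1 and Sfrp2, secreted proteins with a Frizzled-like domain. Sfrp1 stood at 28.9, 40.6, 36.6, 40.7 and 35.0 CPM in knockout and 33.9, 34.2, 32.5, 30.9 and 31.4 CPM in wild type. Knockout replicate 1 was the lowest of all 10 libraries and the other 4 lay above every wild-type library, with a log2 fold change of 0.16 (SE 0.082, edgeR adjusted p = 0.605). Sfrp2 stood at 10.2, 12.9, 14.3, 9.97 and 12.8 CPM in knockout and 13.7, 14.0, 14.2, 11.8 and 16.2 CPM in wild type, with a log2 fold change of -0.21 (SE 0.12, edgeR adjusted p = 0.664). The 2 genes thus had fold changes of opposite sign, and neither passed. Summed per kilobase, the 5 antagonists of this group stood at 18.02 ± 1.01 in knockout and 18.9 ± 0.737 in wild type (SD, n = 5 each).

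Sfrp5, a further Frizzled-related antagonist, had an unadjusted edgeR p of 0.0280 and an adjusted p of 0.476. It stood at 0.479, 0.994, 0.918, 0.334 and 0.336 CPM in knockout and 1.52, 0.698, 0.868, 1.80 and 1.07 CPM in wild type. Knockout replicates 1, 6 and 8 lay below all wild-type libraries on 6 to 8 counts, with a log2 fold change of -0.97 (SE 0.42). Frzb had 8.57 ± 2.19 CPM in knockout and 10.1 ± 1.32 CPM in wild type (SD, n = 5 each) at a difference of -0.24 on the log2 scale (SE 0.15). Wif1, which binds Wnt proteins through its own domain and is named after its values were seen, had counts of 46, 30, 4, 6 and 45 in the knockout libraries and 23, 27, 31, 28 and 20 in the wild-type libraries. Its coefficient of variation was 78.6% in knockout and 21.9% in wild type, with means of 1.501 and 1.346 CPM, so the knockout libraries fell on both sides of the wild-type range.

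The most abundant members were intracellular. Ctnnb1, which encodes beta-catenin, stood at 216 ± 14.5 CPM per kilobase in knockout and 227 ± 6.05 in wild type. Apc followed at 130.3 ± 9.22 and 129 ± 5.90, and its neuronal paralogue Apc2 (46.3 ± 3.23 and 49.01 ± 2.42) overlapped the kinase gene Gsk3b (47.75 ± 2.80 and 46.2 ± 2.99; knockout before wild type in each pair, SD, n = 5). In CPM, Ctnnb1 had 781, 783, 828, 819 and 695 in knockout and 788, 825, 831, 817 and 847 in wild type, a log2 fold change of -0.072 (95% interval -0.17 to 0.021). Knockout replicate 8 was the lowest of all libraries for Ctnnb1, replicates 1 and 3 lay just below every wild-type library, and replicates 5 and 6 lay within the wild-type range.

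Apc, the scaffold of the destruction complex, had 1710, 1601, 1889, 1602 and 1767 CPM in knockout and 1703, 1671, 1611, 1823 and 1685 CPM in wild type. Its log2 fold change was 0.013, with a 95% interval from -0.080 to 0.11. The adaptor genes Dvl1 and Dvl3 had overlapping ranges at 25.9 ± 2.08 and 24.9 ± 1.41 CPM per kilobase in knockout and 24.6 ± 1.69 and 24.7 ± 0.411 in wild type, far above Dvl2 at 2.84 and 2.83. Dvl1 had 91.3, 90.0, 76.4, 93.9 and 83.9 CPM in knockout and 89.9, 78.4, 81.1, 76.4 and 86.7 CPM in wild type (log2 fold change 0.079, SE 0.061). Dvl3 had 102, 102, 111, 100.4 and 114 CPM in knockout and 106, 102, 105, 107 and 104 CPM in wild type (log2 fold change 0.012, SE 0.051). 0 of these 8 intracellular genes had an unadjusted edgeR p under 0.05.

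The nuclear factors were low. Tcf7, Lef1 and Tcf7l1 averaged 2.65, 2.38 and 2.38 CPM per kilobase over all libraries, with overlapping ranges. Lef1 had 9.64, 7.95, 7.34, 8.58 and 7.66 CPM in knockout and 9.39, 6.28, 8.57, 8.05 and 10.1 CPM in wild type, a log2 fold change of -0.043 (95% interval -0.33 to 0.25). Tcf7 had 6.77, 5.63, 6.67, 7.69 and 8.00 CPM in knockout and 7.66, 6.44, 7.76, 6.39 and 6.51 CPM in wild type, a log2 fold change of 0.0018 (95% interval -0.30 to 0.30). The groups overlapped for both.

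Axin2, Nkd1, Znrf3 and Rnf43 are negative regulators that are themselves raised by canonical signalling in many tissues. Axin2, the most widely used readout of the pathway, had 29.7, 31.0, 31.6, 27.2 and 32.1 CPM in knockout and 31.4, 28.4, 31.5, 34.8 and 31.4 CPM in wild type. The groups overlapped, with a log2 fold change of -0.055 (95% interval -0.21 to 0.10). Nkd1, an inhibitor of Dishevelled, had 17.0, 15.2, 18.7, 17.9 and 15.3 CPM in knockout and 15.5, 16.2, 17.3, 17.3 and 14.0 CPM in wild type, a log2 fold change of 0.065 (95% interval -0.14 to 0.27). Znrf3 and Rnf43, ubiquitin ligases that remove Frizzled receptors, had log2 fold changes of -0.080 (SE 0.11) and 0.25 (SE 0.23).

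Of 16 target genes of beta-catenin signalling, 15 were tested and 0 passed over all genes, while 2 had an unadjusted edgeR p under 0.05, beside 8.71% of all tested genes, and the median log2 fold change was -0.043. The smallest p belonged to Cd44, a hyaluronan receptor gene, at 18.02 ± 2.27 CPM in knockout and 22.6 ± 2.62 CPM in wild type (log2 fold change -0.33, SE 0.10, edgeR adjusted p = 0.239). Id2, an inhibitor of helix-loop-helix factors, stood at 121 ± 13.5 and 109 ± 4.28 CPM (0.15, SE 0.061, adjusted p = 0.425), and Lgr5, an R-spondin receptor gene, at 1.34 ± 0.620 and 1.96 ± 0.822 CPM (-0.55, SE 0.37, adjusted p = 0.746), knockout first in each case (SD, n = 5). Apcdd1, the most abundant pathway-specific target of the list, stood at 95.5 ± 4.85 CPM in knockout and 98.4 ± 5.71 CPM in wild type, and the cell cycle gene Ccnd1 at 38.2 ± 3.84 and 37.8 ± 1.68 CPM.

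The promoters of 2 target genes show where CTTTGA, a form of the core motif read by the Tcf factors, is placed. CTTTGA or its reverse complement TCAAAG was searched in the 250 bases before each gene start in RefSeq sequence of GRCm38.p6. Of 32851 such windows 13.8% hold it. Other forms of the motif were not searched and are not marked. The searched form was found in any window of the gene for 3 of the 10 target genes with an entry, Lef1, Sp5 and Dkk1. Lef1 had 4 windows, and Tcf7 and Rnf43 had 2 each, so this count per gene is not like the share per window. Sp5, a transcription factor gene and direct target, and Axin2 are printed 5′ to 3′ on the plus strand, with the searched form in capitals. Sp5 lies at chr2:70474673-70474922 and Axin2 at chr11:108920099-108920348.
Sp5: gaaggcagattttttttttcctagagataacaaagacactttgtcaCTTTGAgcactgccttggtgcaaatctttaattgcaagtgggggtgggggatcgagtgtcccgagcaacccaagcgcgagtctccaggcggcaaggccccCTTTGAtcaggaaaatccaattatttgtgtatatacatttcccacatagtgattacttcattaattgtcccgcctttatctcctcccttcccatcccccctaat
Axin2: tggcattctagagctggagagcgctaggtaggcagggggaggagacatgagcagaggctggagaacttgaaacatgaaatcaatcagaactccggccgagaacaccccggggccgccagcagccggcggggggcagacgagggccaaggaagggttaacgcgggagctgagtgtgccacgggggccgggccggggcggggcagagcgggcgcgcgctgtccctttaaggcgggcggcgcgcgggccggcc
The Sp5 window holds 2 matches to the searched form, which start 204 and 104 bases before the gene start, and the Axin2 window holds none. Sp5 stood at 2.17 ± 1.32 CPM in knockout and 2.26 ± 0.944 CPM in wild type (SD, n = 5 each), with a log2 fold change of -0.041 (SE 0.36).

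The wider pathway was followed in 70 further genes, of which 61 were tested. 0 passed over all genes, where 0.381% of all tested genes did, and 2 higher and 6 lower genes had an unadjusted edgeR p under 0.05, beside 4.19% and 4.52% of all tested genes. The median log2 fold change was -0.020. The smallest p belonged to Daam2, a formin of the Wnt pathway, at 63.3, 61.7, 55.5, 57.7 and 57.7 CPM in knockout and 49.2, 44.7, 50.7, 55.6 and 49.6 CPM in wild type. Knockout replicate 5 lay just below wild-type replicate 6, and the other knockout libraries lay above every wild-type library, with a log2 fold change of 0.24 (SE 0.064, edgeR adjusted p = 0.0985). DESeq2 gave an adjusted p of 0.0435 for Daam2, and edgeR without the filter 0.0324.

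Rspo3, an R-spondin that raises Wnt signalling by protecting Frizzled receptors, stood at 11.7, 11.98, 12.2, 10.4 and 11.5 CPM in knockout and 8.18, 7.73, 9.67, 9.53 and 10.1 CPM in wild type. Every knockout library lay above every wild-type library, with a log2 fold change of 0.35 (SE 0.12), but the edgeR adjusted p was 0.317. It was the 1 gene of the 61 without overlap, beside 1.83% of all tested genes. Dact1, a Dishevelled-binding regulator, stood at 33.6, 28.3, 35.9, 31.0 and 34.0 CPM in knockout and 40.2, 37.0, 36.0, 35.3 and 39.5 CPM in wild type, a log2 fold change of -0.21 (SE 0.075, edgeR adjusted p = 0.338). Reck and Adgra2, which encode the co-receptor complex for Wnt7a and Wnt7b on brain endothelium, had log2 fold changes of -0.25 (SE 0.15) and 0.023 (SE 0.097). Ndp and Tspan12, which encode an alternative ligand of Fzd4 and its co-receptor, stood at -0.015 (SE 0.15) and -0.056 (SE 0.098).

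The intervals show which sizes of change the data bound. For 37 of the 48 tested members other than Dkk3 (77.1%, beside 78.2% of all tested genes) the 95% interval lay within a fold of 1.5 in either direction, and for 15 within a fold of 1.2 (31.2%, beside 45.6% of all tested genes). The 11 members with wider intervals were Dkk2, Wnt2, Wnt2b, Wnt3, Wnt5b, Wnt10a, Wnt11, Fzd5, Sfrp5, Wif1 and Rnf43, whose means ran from 0.902 to 3.74 CPM. A change of 1.5-fold in these 11 genes was not bounded by the data.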

How the data were processed

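The authors deposited whole-number counts per library for genes named by Entrez identifier. The submitters' processing notes name HISAT2, featureCounts and the mm39 build. Their versions, the annotation, strand setting and multi-mapping treatment were not given by the sources used here. Reads of overlapping genes on opposite strands therefore cannot be told apart. In GENCODE M21 basic, exons of opposite-strand genes cover 34.5% of the Lef1, 19.3% of the Dvl2, 17.8% of the Fzd5, 17.3% of the Sfrp2 and 10.1% of the Wnt11 exon length, and none of Dkk3.

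Symbols came from a RefSeq table of GRCm38.p6 (30648 of 30935 identifiers matched), and exon lengths from GENCODE M21 basic, which may differ from the authors' annotation. Counts were fitted in R 4.3.3 with edgeR 4.0.16 (filterByExpr, TMM, robust quasi-likelihood F test, genotype alone, two-sided, Benjamini-Hochberg over all tested genes, threshold 0.05). CPM uses TMM-scaled totals. Standard errors come from the F statistic. The fit was tested on simulated data. Each library came from an independent biological sample and counted as 1 replicate. Pairs of libraries of a genotype differed by more than sampling noise (chi-square per degree of freedom 4.10 to 13.9). Alternatives used DESeq2 1.42.0 and limma 3.58.1.

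Members and gene lists were chosen with earlier results of these data known. Values in every library are given for the Dickkopf genes, members at an unadjusted p under 0.05 and the top 2 members of each role by level. Of the pathway and target lists, genes past the threshold and the 3 with the smallest p were named, and of the markers Ttr, Six3 and Penk. Other genes were named after their values were seen. P-values set the genotype difference against the spread between these mice.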

Additional observations from a re-analysis of the deposited data

Results flagged for a closer look

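In 62 groups of 5 libraries (31 named genes in each genotype) the highest or lowest library was examined for its distance from the other 4, which chance alone makes large in about 1 of 20 groups. 3 stood far apart. Lrp6 was highest in knockout replicate 5, at 69.8 CPM against 57.9 to 60.6 CPM in the other knockout libraries. Cd44 was lowest in knockout replicate 3, at 14.1 CPM against 18.2 to 19.6 CPM. Fzd3 was lowest in wild-type replicate 4, at 159 CPM against 190.4 to 198 CPM in the other wild-type libraries.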

How the results depend on the processing

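Dkk3 was the 1 member called under each setting except the choroid and striatal covariates, where edgeR called 0 members. With the choroid covariate Dkk3 stood at 0.34, with 6 members at an unadjusted p below 0.05, and with the striatal covariate at 0.28, with 4 members. The replicate numbers 5 and 6 occur in both genotypes, but nothing in the labels ties those mice together and their libraries did not deviate together (correlation of deviations -0.030 and -0.057). With them as a block over 4 libraries Dkk3 stood at 0.54 (adjusted p = 0.0102), and the fold changes of Porcn (-0.047), Lrp6 (0.0057), Kremen1 (0.019), Dvl3 (-0.0027) and Ctnnb1 (0.00090) turned sign. Daam2 was the 1 further pathway gene called without a filter and with DESeq2. Leaving out single libraries called 0 to 2 further pathway genes: Daam2 without wild-type replicate 6, and Draxin and Tle3 without knockout replicate 8. 0 target genes were called under any setting. 47 or 48 members stood at 1 CPM or above. Over all genes edgeR called 59, against 171 without a filter, 28 with the sex covariate, 29 with the block and 15 to 182 without single libraries, and DESeq2 called 124.

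Further values that turned sign, none of them called, were as follows. With library totals only Porcn was -0.0035 and Tcf7 -0.0034, and with at least 50 counts in 5 libraries -0.0020 and -0.0015. With the sex covariate Porcn was -0.0047 and Kremen1 0.00047. With the choroid covariate Dkk2 was 0.34, Wnt4 -0.0018, Wls -0.015, Fzd9 -0.090, Sfrp1 -0.13, Lef1 0.15 and Lgr5 0.31. With the striatal covariate Dkk2 was 0.597, Dkkl1 0.16, Wnt4 -0.021, Wls -0.0048, Fzd9 -0.097, Apc -0.012 and Lgr5 0.29. With knockout replicates 1 and 8 only Dkk2 was 0.14, Dkkl1 0.0018, Wls -0.0033, Fzd9 -0.0033, Sfrp1 -0.025 and Lef1 0.028. Leaving out single libraries moved Dkk2 between -0.27 and 0.14, Porcn between -0.020 and 0.037, Tcf7 between -0.051 and 0.071, Kremen1 between -0.079 and 0.0495, Dvl3 between -0.012 and 0.030, Apc between -0.022 and 0.045, Lrp6 between -0.074 and 0.014 and Lef1 between -0.13 and 0.032. The cause was not tested. Counts of under 50 per library limit Wnt10a, Sfrp5, Wif1 and Dkk2.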
